A study of Homo sapiens with 4 samples.

Results

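Expression of the proteasome genes was followed on 4 whole-transcript arrays of 22Rv1, a prostate cancer cell line of human origin that grows without androgen. They were chosen by name, as every probe set whose single gene symbol starts with PSMA, PSMB, PSMC, PSMD, PSME, PSMF or PSMG, and 49 of 17709 named probe sets matched, each for a gene of its own among 17687 genes. Of these 49, 44 encode a proteasome subunit, regulator or assembly factor and 5 share only the letters. PSMC5, PSMD7, PSMD13 and PSME2 had no probe set in the platform table used and were not analysed here. Cells were given siOCT1, which targets the transcription factor OCT1 (gene POU2F1), or siControl, and 48 h later 10 nM dihydrotestosterone (DHT), an androgen, or ethanol vehicle for 24 h. Before the hormone all cells were kept for 3 days in medium with charcoal-stripped serum, which is low in steroids. The 4 groups were siOCT1 with DHT, siOCT1 with vehicle, siControl with DHT and siControl with vehicle, and each held 1 array of 1 cell line. The differences below were therefore not checked in replicates, and having 4 arrays sets their precision. POU2F1 was not analysed here, so siOCT1 stands for the transfection as labelled.

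The proteasome degrades proteins tagged with ubiquitin. Its barrel, the 20S core, stacks rings of alpha subunits, which form the gate, around rings of beta subunits, 3 of which are proteases. The 19S cap binds ubiquitin chains, removes them and unfolds the substrate: its base holds a ring of ATPases and large scaffold subunits, and its lid holds the deubiquitinase. Other activators can cap the core in its place, and dedicated chaperones assemble core and base. Under interferon the catalytic subunits are exchanged for those of the immunoproteasome, and when proteasome activity is short the transcription factor NRF1 (gene NFE2L1) raises the genes of core and cap together.

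Values are log2 signals, and differences are log2 differences on the scale deposited. Values in the file reach 19.4, so its scale may be stretched, and folds with it. Background is the level that 95% of an array's 612 negative control probe sets stay under, 6.91 and 7.39 on the siOCT1 arrays with DHT and vehicle and 6.99 and 6.62 on the siControl arrays. Genes whose highest signal passed 6.51, the median of such maxima, were taken as measured. Of the 44 proteasome genes 39 were measured, and 38 of these lay above background on all 4 arrays. The label of the cells was checked on marker genes. All 8 luminal epithelial markers with a probe set were measured, with KRT8, KRT18, EPCAM, HOXB13 and FOLH1 above background on every array. The others lay above it on only 2 arrays each, KLK3 and SLC45A3 on those with DHT and KLK2 on those with siControl. The 2 basal, 3 endothelial and 6 immune markers lay below background on all arrays, as did 4 of 5 stromal markers, with COL1A2 above it on 1 array. Among the 8 luminal markers KRT8 and KLK2 fell and FOLH1 rose in siOCT1 cells by the test used below. By the same test 15.3% of all measured genes were lower and 9.10% higher.

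Many proteasome genes had lower signal in siOCT1 cells. Of the 39 measured genes 14 fell and none rose in an additive limma fit of siRNA and ligand, at an adjusted p under 0.05. That is 35.9% of them, where 15.3% of all 8843 measured genes were lower and 9.10% higher in the same fit. Loess centring made that split 13.4% lower and 12.7% higher, with 10 proteasome genes lower and none higher. Centring on positive control probe sets made it 15.2% and 13.8%, with 11 lower and none higher. Limma without an intensity trend made it 12.6% and 6.93%, with only 6 lower and none higher. With a size rule of at least 1.5-fold in both ligand states, 14 were lower and none higher, against 18.7% and 12.2% of all measured genes. That count was 7 lower and 1 higher with loess centring, against 15.5% and 15.7% of all measured genes, and 11 lower and 2 higher with centring on positive controls, against 16.1% and 14.4%. At 2-fold 4 were lower, against 9.63%. In DHT alone 16 genes were at least 1.5-fold lower, against 26.0% of all measured genes, and in vehicle alone 25, against 28.7%. The median difference over the 39 genes was -0.45 in DHT and -0.81 in vehicle, against -0.07 and -0.06 over all measured genes. In bulk RNA, fewer expressing cells and less RNA per cell cannot be told apart. The fit rests on 1 residual degree of freedom, the disagreement of both ligand states, not on repeat cultures.

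**Figure D1:**
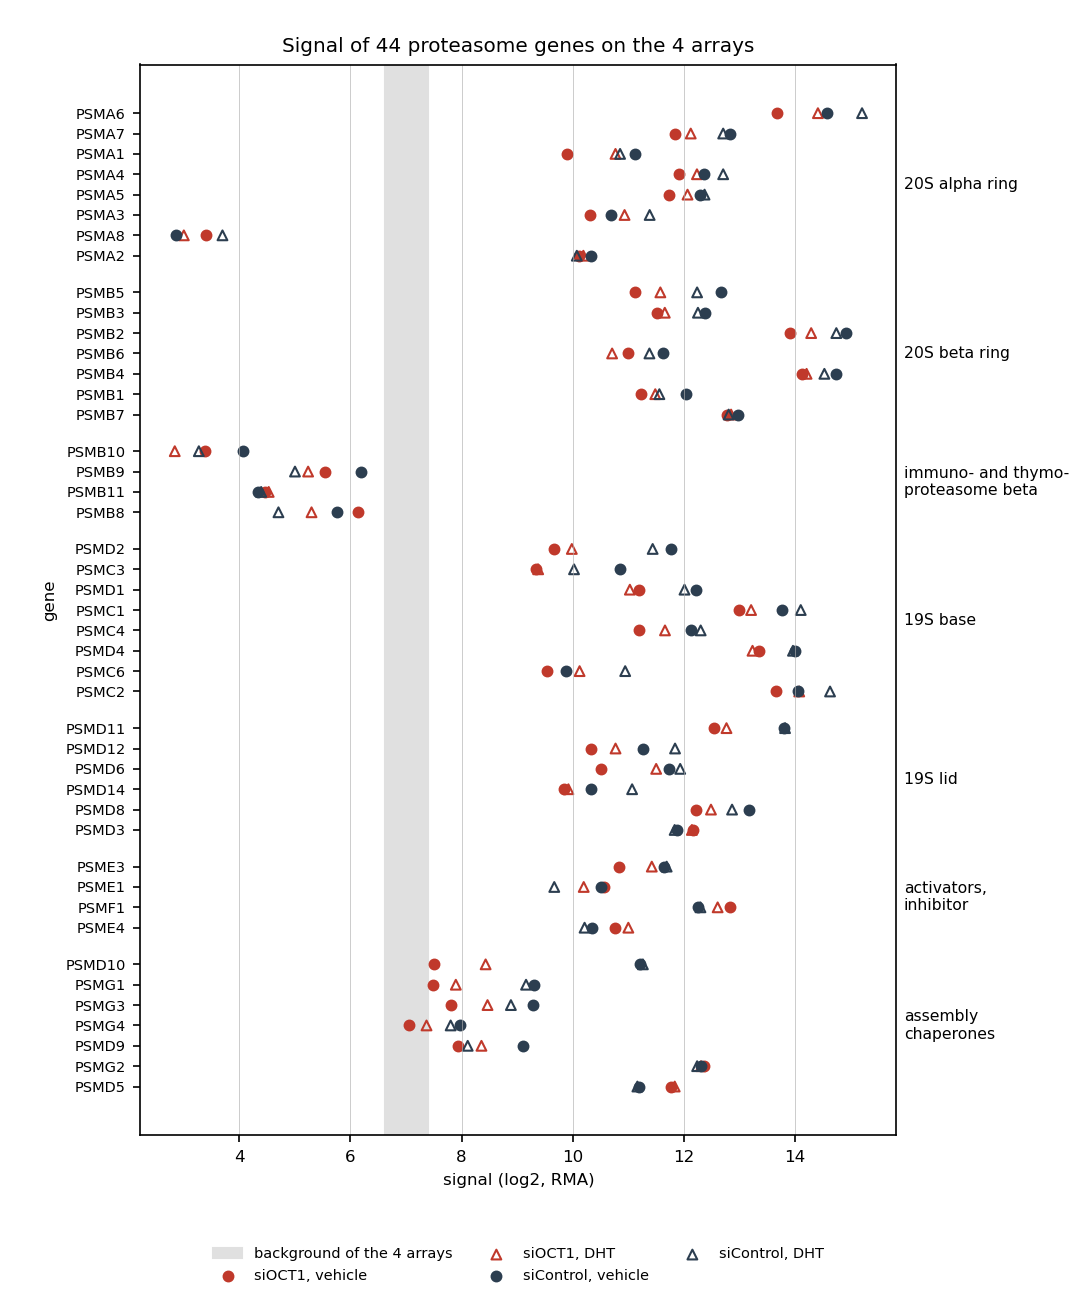
Signal (log2, RMA) of the 44 proteasome genes on the 4 arrays, grouped by role, with red for siOCT1, dark blue for siControl, triangles for DHT and circles for vehicle. The grey band spans the backgrounds of the 4 arrays, 6.62 to 7.39, and the immunoproteasome and thymoproteasome genes and PSMA8 lie left of it on every array.

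Differences below 0 in both ligand states were seen for 30 of the 39 genes, where 42.0% of all measured genes had them, and 6 genes were above 0 in both. The middle 50% of the mean differences over both ligand states ran from -0.84 to -0.44 for proteasome genes and from -0.62 to 0.44 for all measured genes. Among the 38 genes above background on all arrays 14 fell, 14 were past 1.5-fold in both ligand states and 29 were below 0 in both, against 14.5%, 16.2% and 40.2% of the 6458 such genes. The genes that fell and those past 1.5-fold were not all the same. PSMA7 and PSMB2 passed only the fit, and PSMB3 and PSMB6 only the size rule. Between signals of 10 and 14, which hold 29 of the proteasome genes, 9 fell and their median was -0.65, against a median of -0.07 over the 2874 genes in that range, of which 17.5% were lower. Across the 39 genes, which come from the same arrays, the differences in DHT and in vehicle correlated with a Pearson r of 0.82 and a Spearman correlation of 0.59, against 0.76 and 0.73 over all measured genes. Without PSMD10 the Pearson r was 0.71.

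**Figure D2:**
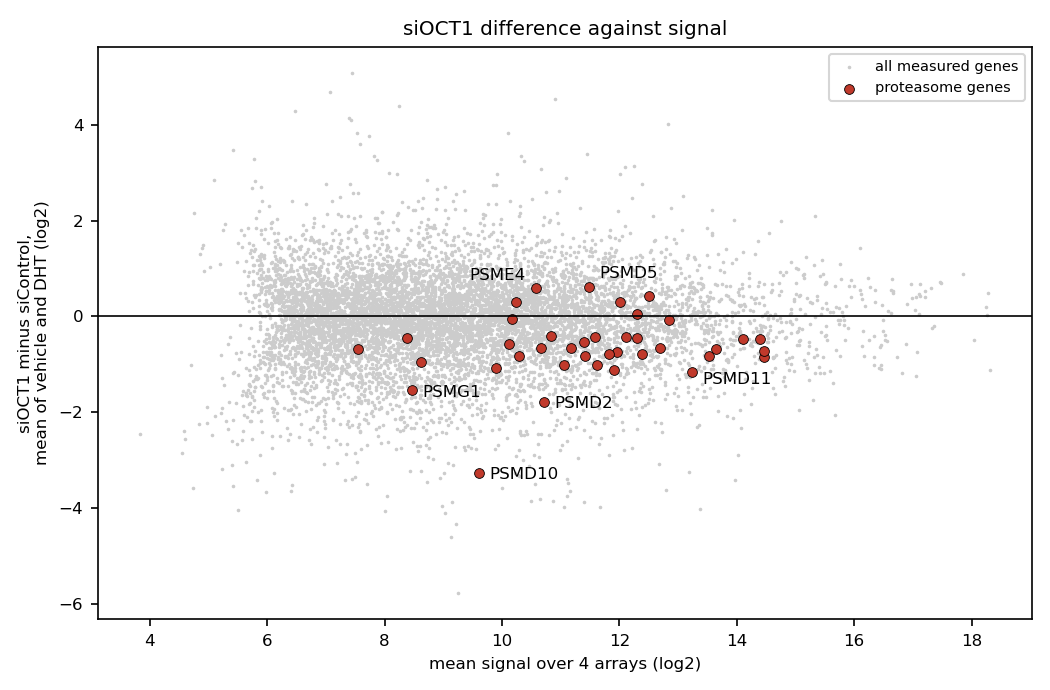
Mean difference between siOCT1 and siControl (log2) against the mean signal over 4 arrays (log2) for 8843 measured genes (grey) and 39 proteasome genes (red). Most proteasome genes lie a little below 0 along the whole range of signals, and PSMD10 lies apart at -3.27.

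Of the 7 assembly chaperones, all measured, 2 fell, against 15.3% of all measured genes. The lowest and the highest mean difference of the 39 genes were both among the chaperones. PSMD10, also called gankyrin, is a chaperone of the 19S base and an oncoprotein that binds the retinoblastoma protein and MDM2. In DHT its signal was 8.43 in siOCT1 cells, against 11.26 in siControl cells, and in vehicle 7.51 against 11.21. The siOCT1 signal in vehicle lay just above that array's background, and both siControl signals lay far above theirs. PSMD10 fell by 2.83 in DHT and by 3.70 in vehicle, 7.11-fold and 13.0-fold (adjusted p = 0.0017, limma), and ranked 39th among 8843 genes from the lowest mean difference.

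PSMG1, one partner of the PAC1 and PAC2 pair that starts the alpha ring, had signals of 7.90 in siOCT1 and 9.16 in siControl cells with DHT, and of 7.49 and 9.30 in vehicle. It fell by 1.26 in DHT and 1.82 in vehicle (adjusted p = 0.012, limma). Its partner PSMG2 stood at 12.31 in siOCT1 and 12.24 in siControl cells with DHT and at 12.36 and 12.32 in vehicle, differences of 0.07 and 0.05. The genes of the PAC3 and PAC4 pair, PSMG3 and PSMG4, did not pass the test. PSMG3 had 8.47 in siOCT1 and 8.89 in siControl cells with DHT and 7.81 against 9.28 in vehicle, and differed by -0.42 in DHT and -1.47 in vehicle (adjusted p = 0.078). PSMG4 had 7.37 against 7.80 in DHT, a difference of -0.43, and 7.06 against 7.97 in vehicle. There the siOCT1 signal was below background, which bounds the difference at 1.49-fold or more. Of the other base chaperones, PSMD9 differed by 0.25 in DHT and -1.16 in vehicle. PSMD5 (S5b), which holds ATPases of the base before assembly, had the highest mean difference of all 39 genes. Its signal was 11.84 in siOCT1 and 11.16 in siControl cells with DHT and 11.76 against 11.19 in vehicle, and the difference of 0.67 and 0.57 did not pass (adjusted p = 0.094, limma).

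In the 19S base all 8 measured genes had negative differences in both ligand states and 6 of them fell. Of all measured genes 42.0% and 15.3% did so. The median of the base was -0.77 in DHT and -0.85 in vehicle. PSMD2 (Rpn1), the scaffold that docks ubiquitin shuttles and the deubiquitinase USP14, had signals of 9.98 in siOCT1 and 11.44 in siControl cells with DHT and of 9.67 and 11.78 in vehicle. It fell by 1.45 and 2.11 (adjusted p = 0.0068, limma), the largest fall of a structural subunit here. The other large scaffold, PSMD1 (Rpn2), fell by nearly equal amounts, 0.98 in DHT and 1.03 in vehicle, with signals of 11.03 against 12.01 and 11.19 against 12.23 in siOCT1 and siControl cells.

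Among the ATPases, PSMC3 (Rpt5) had 9.38 in siOCT1 and 10.02 in siControl cells with DHT and 9.34 against 10.85 in vehicle, and fell by 0.65 and 1.51. PSMC1 (Rpt2), whose tail opens the gate of the core, fell by 0.89 in DHT and 0.77 in vehicle, a call lost under 1 alternative. PSMC4 (Rpt3) fell by 0.64 and 0.92 at the edge of the threshold (adjusted p = 0.0499), a call lost under 6 of the 9 alternatives tried. PSMC2 and PSMC6 did not pass, at -0.55 and -0.82 in DHT and -0.39 and -0.34 in vehicle. The ubiquitin receptor PSMD4 (Rpn10) fell by 0.73 and 0.64, a call lost under 4 alternatives, and that of PSMC3 was lost under 3.

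In the lid, 5 of 6 measured genes had negative differences in both ligand states and 2 fell, against 42.0% and 15.3% of all measured genes. PSMD11 (Rpn6), which clamps the lid to the core, had 12.77 in siOCT1 and 13.82 in siControl cells with DHT and 12.55 against 13.80 in vehicle. It fell by 1.05 and 1.25 (adjusted p = 0.011, limma), and both siControl signals lay above both siOCT1 signals by about the same distance. PSMD12 (Rpn5) fell by 1.07 in DHT and 0.93 in vehicle, with signals of 10.77 against 11.84 and 10.33 against 11.26. PSMD14 (Rpn11), the deubiquitinase of the lid, differed by -1.15 in DHT and -0.49 in vehicle, without passing. PSMD6 stood at -0.43 and -1.23, and PSMD8 at -0.38 and -0.96. PSMD3 (Rpn3) was the exception, with 12.14 in siOCT1 and 11.83 in siControl cells with DHT and 12.16 against 11.88 in vehicle, a difference of 0.31 and 0.28 that did not pass (adjusted p = 0.36).

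**Figure D3:**
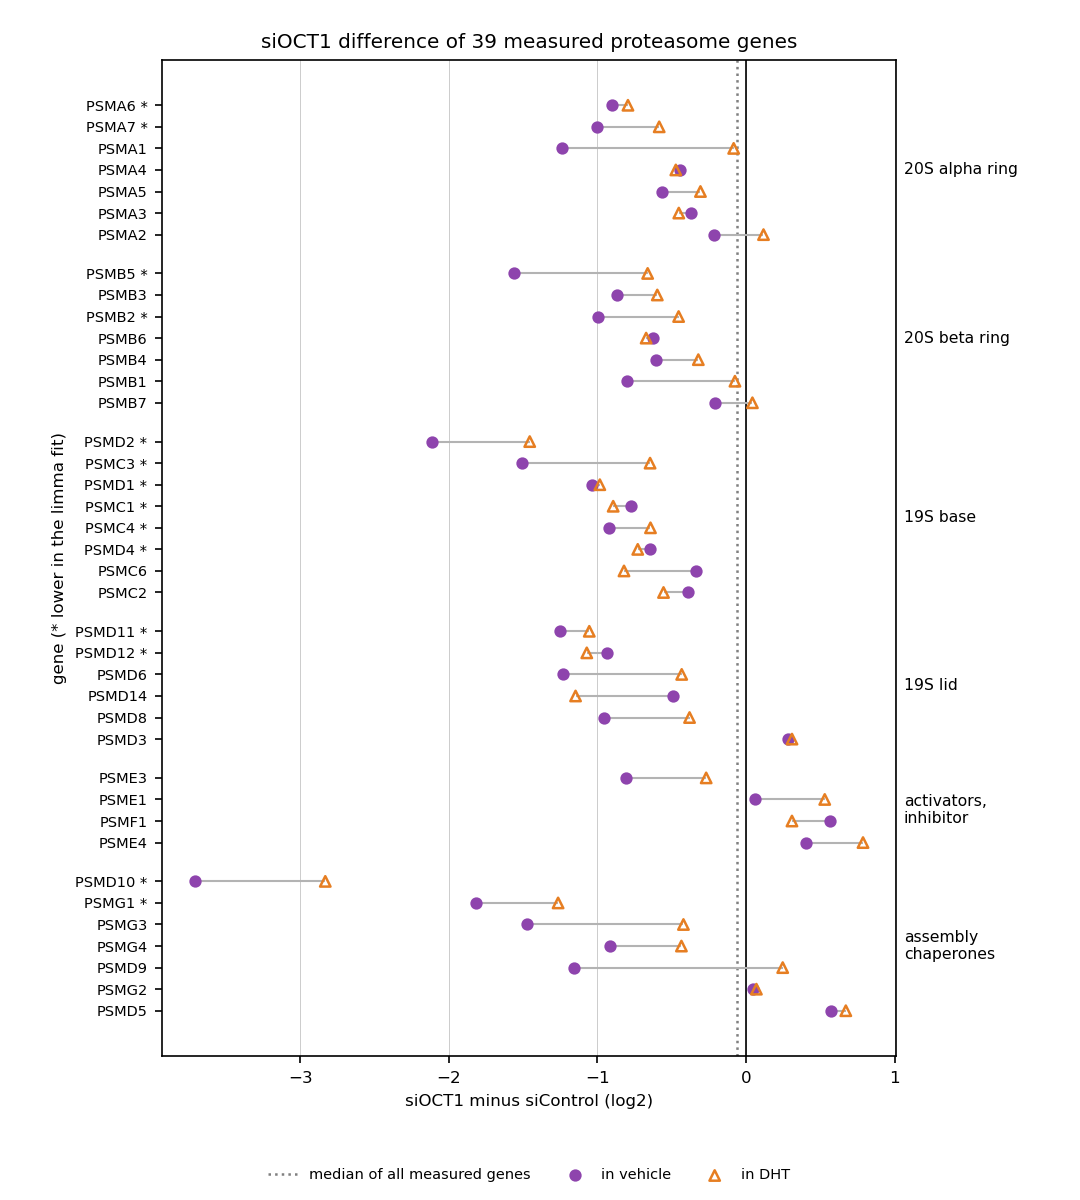
Difference between siOCT1 and siControl (log2) in vehicle (circles) and in DHT (triangles) for the 39 measured proteasome genes, grouped by role, with an asterisk for the 14 genes lower in the limma fit. The 19S base lies wholly below 0, PSMD10 reaches -3.70, and PSMD3, PSMD5, PSMG2, PSME1, PSME4 and PSMF1 lie above 0 in both ligand states.

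In the core, of 7 measured alpha genes 2 fell, with a median of -0.45 in DHT and -0.56 in vehicle. Of 7 beta genes 2 fell, with medians of -0.45 and -0.80. Among all measured genes 15.3% were lower. PSMA6 (alpha1) had 14.41 in siOCT1 and 15.21 in siControl cells with DHT and 13.68 against 14.58 in vehicle. It fell by 0.79 and 0.90, a call lost under 1 alternative. PSMA7 (alpha4) fell by 0.58 and 1.0 (adjusted p = 0.047, limma) and PSMB2 (beta4) by 0.45 and 0.996 (adjusted p = 0.043), calls lost under 6 and 4 of the 9 alternatives. PSMA1 (alpha6) had 10.77 in siOCT1 and 10.85 in siControl cells with DHT and 9.89 against 11.13 in vehicle. It differed by -0.08 in DHT and -1.24 in vehicle, and PSMB1 by -0.07 and -0.80, and neither passed. PSMA2 and PSMB7 had differences of both signs, 0.12 and 0.04 in DHT and -0.22 and -0.21 in vehicle.

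Of the 3 catalytic genes 1 fell, against 15.3% of all measured genes. PSMB5 (beta5, the chymotrypsin-like protease and main target of bortezomib) had 11.58 in siOCT1 and 12.24 in siControl cells with DHT and 11.11 against 12.67 in vehicle. It fell by 0.66 and 1.56 (adjusted p = 0.033, limma), a call lost under 2 alternatives. PSMB6 (beta1, caspase-like) had 10.71 against 11.38 and 11.00 against 11.62, and its differences of -0.67 and -0.63 did not pass (adjusted p = 0.087). PSMB7 (beta2, trypsin-like) had 12.85 against 12.81 and 12.77 against 12.98. Whether the 3 genes differ from each other was not tested.

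Their immunoproteasome counterparts PSMB8, PSMB9 and PSMB10, the thymus gene PSMB11 and the testis gene PSMA8 lay below background on all 4 arrays. PSMB8 ranged from 4.70 to 6.13, PSMB9 from 5.0 to 6.2 and PSMB10 from 2.84 to 4.06, so no fold is given for them. Of 12 further genes of class I antigen processing, 9 had a probe set and 5 were measured, with TAP2 among these below background on all 4 arrays. In siOCT1 cells 1 of the 5 rose and none fell, where 9.10% of all measured genes were higher and 15.3% lower. Tapasin (TAPBP), which loads peptides onto class I molecules, rose by 1.91 in DHT and 1.54 in vehicle (adjusted p = 0.0072, limma). None of the others passed, beta-2-microglobulin (B2M) among them at -0.66 and -0.63.

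None of the 4 measured genes of activators and the inhibitor passed, and 3 had positive differences in both ligand states, as had 3103 of all 8843 measured genes. PSME4 (PA200), a nuclear activator, had 11.00 in siOCT1 and 10.21 in siControl cells with DHT and 10.76 against 10.35 in vehicle, a difference of 0.79 and 0.41 (adjusted p = 0.13). PSMF1 (PI31), first described as an inhibitor of the core, had 12.61 against 12.30 in DHT and 12.82 against 12.26 in vehicle, a difference of 0.31 and 0.57. PSME1 (PA28 alpha), the interferon-inducible cap, had 10.20 against 9.67 and 10.56 against 10.50, a difference of 0.53 and 0.06. PSME3 (PA28 gamma), its nuclear relative, was the one below 0, with 11.42 against 11.69 and 10.84 against 11.65, differences of -0.27 and -0.81.

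Promoter sequence is given for a few genes at both ends of the siOCT1 difference, from RefSeq for GRCh38.p14. A window from 250 bases before to 50 after the gene's start was found for 38 of the 44 genes, 12 of the 14 that fell among them. The octamer ATGCAAAT, the motif OCT1 is known to bind, was searched on both strands and matched in 0 of the 38 genes, where 2.19% of all 27305 genes in the table held it. The core TGACNNNGC, bound by NRF1 and its relative NRF2, matched in 13 of 38 genes, against 16.1% of all genes in the table and 19.7% of measured ones, and in 4 of the 12 that fell. CGGAAG, the core of ETS factors, matched in 22 genes, against 22.6% of all genes and 41.5% of measured ones. CCAAT, the NF-Y box, matched in 18, against 39.7% and 44.8%. Each of these 2 motifs matched in 5 of the 12 that fell. No core match in these windows overlapped one of the other motifs. The 250 bases before the start are printed for PSMD10, PSMG1 and PSMD11, the 3 lowest genes with a single window, and for PSMD5 and PSME4, which had the highest differences. Capitals mark the core TGACNNNGC on either strand. PSMD10 and PSMD11 hold none here, while the match begins 183 bases before the start in PSMG1, 134 in PSMD5 and 34 in PSME4, so genes with and without lower signal hold it. A match of letters does not show binding.
PSMD10 (chrX:108091543-108091792, minus strand): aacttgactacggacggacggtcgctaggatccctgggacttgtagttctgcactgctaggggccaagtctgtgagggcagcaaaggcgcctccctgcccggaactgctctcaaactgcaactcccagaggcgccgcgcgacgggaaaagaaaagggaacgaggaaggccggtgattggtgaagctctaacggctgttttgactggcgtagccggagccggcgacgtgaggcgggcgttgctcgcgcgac
PSMG1 (chr21:39183452-39183701, minus strand): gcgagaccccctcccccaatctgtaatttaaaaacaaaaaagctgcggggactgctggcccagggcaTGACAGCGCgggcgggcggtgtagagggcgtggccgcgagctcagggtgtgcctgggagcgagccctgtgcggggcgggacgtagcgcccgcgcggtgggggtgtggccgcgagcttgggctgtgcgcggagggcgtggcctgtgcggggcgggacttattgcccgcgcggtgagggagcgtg
PSMD11 (chr17:32444260-32444509, plus strand): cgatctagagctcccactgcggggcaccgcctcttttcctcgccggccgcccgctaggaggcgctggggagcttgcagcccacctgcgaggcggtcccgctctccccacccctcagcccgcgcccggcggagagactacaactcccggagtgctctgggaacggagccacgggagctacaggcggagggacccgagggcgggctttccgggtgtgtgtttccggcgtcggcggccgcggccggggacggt
PSMD5 (chr9:120842923-120843172, minus strand): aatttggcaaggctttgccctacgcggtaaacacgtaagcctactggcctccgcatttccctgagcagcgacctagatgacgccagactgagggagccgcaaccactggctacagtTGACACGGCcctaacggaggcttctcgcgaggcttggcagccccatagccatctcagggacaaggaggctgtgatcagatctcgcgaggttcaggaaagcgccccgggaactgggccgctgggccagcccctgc
PSME4 (chr2:53970994-53971243, minus strand): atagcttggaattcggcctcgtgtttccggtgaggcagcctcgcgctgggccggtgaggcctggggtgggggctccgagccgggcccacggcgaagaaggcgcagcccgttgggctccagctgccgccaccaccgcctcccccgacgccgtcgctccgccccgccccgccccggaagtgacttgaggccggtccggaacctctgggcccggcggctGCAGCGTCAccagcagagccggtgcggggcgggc

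Other genes of the pathway were looked at through a list of 31, of which 25 had a probe set and 24 were measured. In siOCT1 cells 2 fell and none rose, against 15.3% and 9.10% of all measured genes, with a median difference of -0.25 in DHT and -0.42 in vehicle. The fallen pair was UBQLN1, a shuttle that carries ubiquitinated proteins to the cap, by 0.92 in DHT and 1.24 in vehicle, and VCP, the segregase that extracts proteins for degradation, by 0.79 and 1.03. The next lowest were ADRM1 (Rpn13), a ubiquitin receptor of the base, at -0.72 and -0.75, and UFD1, a VCP cofactor, at -0.60 and -0.73, without passing. NFE2L1 itself had 11.47 in siOCT1 and 11.84 in siControl cells with DHT and 11.39 against 12.11 in vehicle, differences of -0.38 and -0.72 that did not pass (adjusted p = 0.13). The assembly factors POMP and PAAF1 differed by -0.19 and -0.47 in DHT and by -0.27 and -0.34 in vehicle. SEM1, a small lid subunit, lay below background on all arrays. The highest mean differences were those of NGLY1, BAG6, AKIRIN2 and ZFAND5, and none passed. BAG6 stood at 0.54 and ZFAND5 at 0.45. NGLY1, the glycanase that processes NRF1, lay above background on 1 array and AKIRIN2 on 2, so no difference is given for them.

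Of the 5 genes that share only the letters, 4 were measured. PSMC3IP fell (adjusted p = 0.0052, limma). Both its siOCT1 signals were below background, and the bounds were at least 2.62-fold lower in DHT and at least 1.54-fold lower in vehicle. PSME3IP1 differed by -0.38 and -0.56, and the antisense RNA PSMA3-AS1 by 0.22 and 0.72. PSMG3-AS1 was above background on 1 array, and PSMB8-AS1 on none. Whether the antisense probe sets read their own strand was not tested.

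In the limma fit 0 of 39 genes passed for DHT, where 0.984% of all measured genes did, and 4 genes had an unadjusted p under 0.05, where 13.5% of all measured genes had one, a share above that of the proteasome genes. These were PSMA6, PSMA3, PSMC6 and PSMC2, all higher with DHT. The median response was 0.29 in siOCT1 and -0.13 in siControl cells, against 0.02 and -0.03 over all measured genes. At least 1.5-fold higher under both siRNAs were 2 genes, PSMA6 and PSMA3, and none was lower, against 4.86% and 4.37% of all measured genes. PSMA6 was higher with DHT by 0.73 in siOCT1 and 0.63 in siControl cells, and PSMA3 (alpha7) by 0.62 and 0.70. PSMA3 had 10.93 with DHT and 10.31 with vehicle in siOCT1 cells, and 11.38 against 10.68 in siControl cells. PSMC6 (Rpt4) had the highest mean response. Its signal was 10.12 with DHT and 9.54 with vehicle in siOCT1 cells, and 10.94 against 9.88 in siControl cells, 0.58 and 1.07 higher. The lowest mean response was that of PSME1, at -0.37 in siOCT1 and -0.84 in siControl cells, with 10.20 against 10.56 and 9.67 against 10.50 in DHT and vehicle. PSMC3 followed at 0.04 and -0.82.

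The DHT response was more positive in siOCT1 than in siControl cells for 29 of the 39 genes, where 51.7% of all measured genes were. The response was positive for 32 genes in siOCT1 and for 15 in siControl cells. Subtracting the siControl response from the siOCT1 response gave a change that had a median of 0.28 against 0.02 over all measured genes. It reached 1.5-fold upwards in 9 genes and downwards in 1, against 17.5% and 18.0% of all measured genes. In 7 genes the responses also had opposite signs, all with the higher one in siOCT1 cells, where 11.7% of all measured genes did so and 10.4% the other way. The change is a single value per gene made from 4 arrays, equal to the siOCT1 difference in DHT minus that in vehicle, and has no test. Scaling moved it: with arrays centred on the positive control probe sets, the median change was 0.07 and 23 of 39 genes were positive, while the median over all measured genes moved alike, to -0.19. The largest changes were those of PSMD9, at 1.404, PSMA1 at 1.15 and PSMG3 at 1.05. PSMD9 had 8.36 with DHT and 7.94 with vehicle in siOCT1 cells, against 8.11 and 9.10 in siControl cells. Its siControl vehicle signal was the highest of the 4, and what set it apart was not tested. The siOCT1 vehicle signals of PSMD9 and PSMG3, 7.94 and 7.81, lay near the background of 7.39 on that array. On the other side PSMD14 had -0.66, with 9.92 against 9.84 in siOCT1 and 11.07 against 10.33 in siControl cells for DHT and vehicle. PSMC6 had -0.49 and PSMF1 -0.26.

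**Figure D4:**
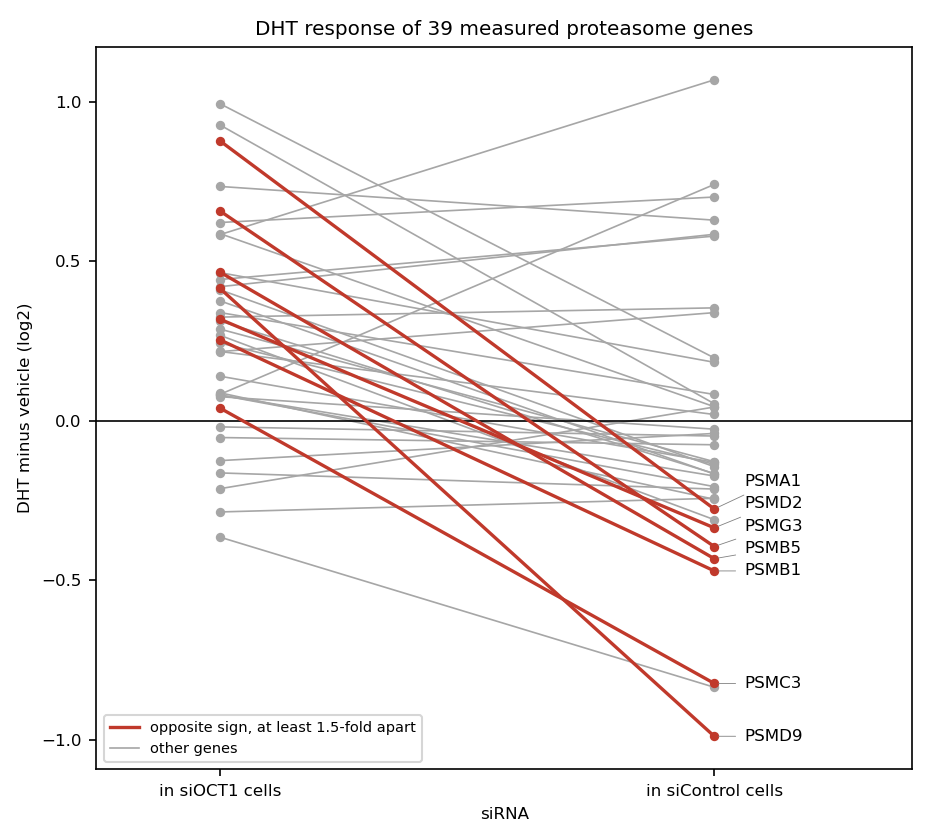
Difference between DHT and vehicle (log2) in siOCT1 cells (left) and in siControl cells (right) for the 39 measured proteasome genes, 1 line per gene. Most lines run down to the right, and the 7 red lines mark genes with responses of opposite sign that differ by at least 1.5-fold, PSMD9 and PSMA1 the most.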

How the data were processed

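Total RNA was labelled with a whole-transcript kit, per the labels' protocols, and each group held 1 array. The deposited values are log2 signals. The submitters' processing notes name RMA and Affymetrix Expression Console as the tools of the authors, and for versions and genome build the sources used here give nothing. RMA gives all arrays 1 distribution, which hides a change in total RNA per cell. That the logarithm has base 2 was inferred from how far the values reach. Values reach 19.4, more than a 16-bit scanner gives, so the scale may be stretched throughout. No proteasome value exceeded 16.

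Probe sets were named through the platform table, the one with the highest mean standing for a gene, and each proteasome gene had 1. Genes with a maximum above 6.51, the median of the maxima, were kept. Terms for siRNA and for ligand were fitted, without an interaction, over 8843 genes with limma 3.58.1 in R 4.3.3 (lmFit, then eBayes with an intensity trend). P-values were adjusted by Benjamini-Hochberg, with a threshold of 0.05. The residual degree of freedom was 1 and the prior ones were 5.85. Verbs of change mark genes past that threshold. The script was tested on simulated data. A bound replaces the fold where 1 array of a comparison was under background. Promoter windows came from RefSeq tables, and figures were drawn with matplotlib 3.10.9 in Python 3.11.15.

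Members and lists were chosen with earlier results of these data known. By the rule for named genes any member could be named, with signals for the 10 lowest and 5 highest siOCT1 differences, the 3 highest and 3 lowest DHT responses and changes, the catalytic pairs, every PSME, PSMF and PSMG gene, and from the pathway list the 4 highest and 4 lowest with NFE2L1, POMP, ADRM1, SEM1 and PAAF1. The signal range of 10 to 14 was chosen after seeing the data.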

Additional observations from a re-analysis of the deposited data

Results flagged for a closer look

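DHT responses that had opposite signs under both siRNAs and differed by at least 1.5-fold were found for 7 of 39 measured proteasome genes, all with the higher response in siOCT1 cells, and these differences were not tested. Of all 8843 measured genes 11.7% had such responses in that direction and 10.4% in the other. PSMD9 was higher with DHT by 0.41 in siOCT1 cells and stood at -0.99 in siControl cells, a change of 1.404. PSMA1 stood at 0.88 and -0.28, a change of 1.15, and PSMG3 at 0.66 and -0.40, a change of 1.05. PSMB5 had 0.47 and -0.43, a change of 0.90, and PSMC3 had 0.04 and -0.82, a change of 0.86. PSMB1 had 0.25 and -0.47, a change of 0.72, and PSMD2 had 0.32 and -0.34, a change of 0.65. No sample could be set against others of its group, since each group held 1 array.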

How the results depend on the processing

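The median siOCT1 difference over proteasome genes, -0.67, ranged from -0.67 to -0.54 under the alternatives, and the median DHT difference, 0.07, from 0.02 to 0.12. The 14 calls for siOCT1 became 8 of 44 with no filter on dim genes, where 5.90% of 17687 genes were lower, and 6 of 39 for limma without trend, where 12.6% of all were lower, and were 10 to 14 under the others. PSMD1, PSMD2, PSMD10, PSMD11, PSMD12 and PSMG1 were called under every alternative, and no proteasome gene was called higher under any. The 14 genes past 1.5-fold became 8 with loess centring, 7 lower and 1 higher against 15.5% and 15.7% of all genes, 11 lower and 2 higher with centring on positive controls, and 4 at 2-fold, against 9.63%. These centrings moved the median siOCT1 difference of all genes by over 0.1, to 0.06 and 0.05. No proteasome gene was called for DHT under any alternative. The 2 genes past 1.5-fold for DHT became 1 with loess centring, 1 with centring on positive controls and 0 at 2-fold. The median change of the DHT response, 0.28, was 0.0698 with centring on positive controls, which moved the median of all genes alike, to -0.19 against 0.02. Positive control medians were 12.19 and 12.13 on the siOCT1 arrays with DHT and vehicle, and 12.19 and 12.34 on the siControl arrays. Why these levels differed, and the cause of the other shifts, was not tested. The fit set siOCT1 against siControl within each ligand state. Replicate cultures could not be paired, because each group held 1 array and the labels number no replicates. Signals of PSMG4, PSMG1 and PSMD10 near background limit the size of their differences. The siOCT1 vehicle signals of PSMG3 and PSMD9 also lay near background, and they enter the changes of the DHT response of these genes.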
